A study of Citrullus lanatus with 4 samples.

Results

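The change from the floral bud to the open flower was described in DAH3615-MS, a genic male sterile line of watermelon (Citrullus lanatus) that sheds no fertile pollen. Its members are all genes with at least 1 count in the DAH3615-MS flower or floral bud library, which gave 18833 genes of the 19732 with a count in any library and the 23440 in the count table. DAH3615-MS is homozygous for the recessive sterility allele (msms) and derives from the ms-1 male sterile line. The male fertile near-isogenic line DAH3615 (Msms) carries 1 copy of the same allele. Both lines came from a population that segregated 1:1 in a backcross program, and all plants grew in a greenhouse. The groups were the DAH3615-MS flower and floral bud and the DAH3615 flower and floral bud, with 1 RNA-seq library each. Buds were taken the day before flowering, when those of DAH3615-MS were shorter than those of DAH3615, and flowers on the first day of flowering. The buds came from higher-numbered nodes than the flowers, so organ and position on the plant cannot be told apart. The sources used here do not say how many plants or buds went into a library.

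Opening of a flower is a short, fast programme. In the last day before anthesis the petals and filaments extend by loosening and rebuilding of the cell wall, pectin between cells is degraded where anthers and petals separate, and the growing tissues stop dividing. After opening, petal cells hold pigments and scent compounds, draw in sugars, recycle stored lipid and nitrogen, and soon begin to age. In a fertile flower part of the late RNA comes from the maturing pollen, which a line without fertile pollen lacks. The size of that part was not measured here. The study also describes the flowers and buds of DAH3615-MS as smaller, and the stamens of its flower as defective. Its other tissues may therefore differ from those of DAH3615 as well.

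The counts on genes were 5239032 in the DAH3615-MS flower and 5778852 in the DAH3615-MS floral bud, against 6315796 and 5631190 in the DAH3615 flower and floral bud. Among 8 described pollen genes, 7 were members, and their summed level was 7.01 CPM (library-scaled counts, with edgeR's TMM factors) in the DAH3615-MS flower and 26.04 CPM in its floral bud. The same genes reached 1569 CPM in the DAH3615 flower and 1276 CPM in its floral bud. The LIM domain protein Cla001608 had 1 count in each DAH3615-MS library, against 5913 and 3772 counts in the DAH3615 flower and floral bud. The pollen allergen Cla002347 had 6 counts in the DAH3615-MS flower and 3 in its floral bud, against 3120 and 2018 in DAH3615. Both DAH3615-MS libraries thus held traces of the pollen genes. The 6 green tissue markers summed to 1100 CPM in the DAH3615-MS flower and 1023 CPM in its floral bud, the 10 phloem markers to 192 and 129 CPM, the 3 markers of sporogenous cells and tapetum to 7.93 and 4.23 CPM, and the 2 carpel markers to 0.922 and 2.93 CPM. The sums for sporogenous cells and tapetum rest on only 43 and 26 counts, and those for carpel on 5 and 18. In the DAH3615 flower and floral bud the same lists summed, in this order, to 1051 and 808, 181 and 124, 6.77 and 5.30, and 8.13 and 18.46 CPM. In these bulk organs, fewer cells of a type and less RNA per cell cannot be told apart.

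With 1 library on each side, the contrast has no replicate and no p-value. A gene was called where the ratio of its TMM-scaled counts, flower over floral bud, was at least 4-fold in either direction and its 2 counts summed to at least 20. The ratio is given with an exact 95% Clopper-Pearson interval, which covers counting error only. A count of 0 was set to 3 counts, which correspond to 0.553 CPM in the flower and 0.488 CPM in the floral bud. The fold of such a gene is set by this floor, and its near counting limit can lie below it. Of the 18833 members, 15377 reached 20 counts. Among these, 1504 genes (9.78%) were called, 756 (4.92%) at least 4-fold higher and 748 (4.86%) at least 4-fold lower in the DAH3615-MS flower. The counting interval itself lay beyond 4-fold for 370 of the higher and 360 of the lower genes. Most genes stayed close to their bud level: 10510 (68.3%) lay within 2-fold, the median log2 ratio was -0.02, and the first and last quartiles of the genes were bounded by -0.68 and 0.59. Changes of 16-fold or more were found for 69 genes higher and 121 genes lower in the flower. The called genes that were higher took up 7.87% of all counts in the flower and 1.26% in the floral bud, and those that were lower took up 1.0% in the flower and 6.5% in the floral bud.

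**Figure D1:**
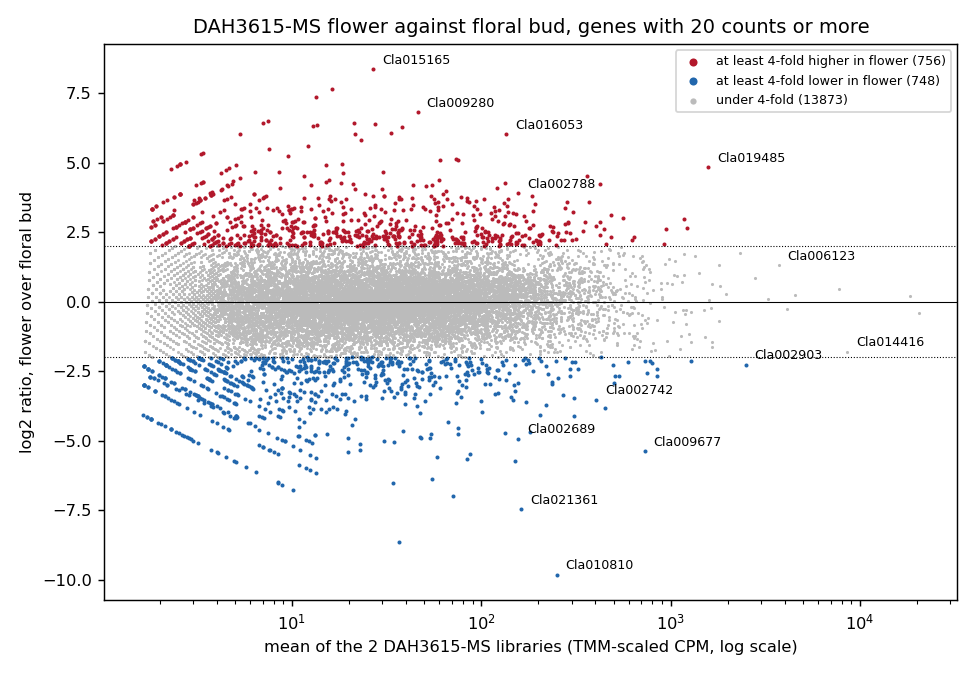
Each point is 1 of the 15377 genes with at least 20 counts, with its mean level in the 2 DAH3615-MS libraries (TMM-scaled CPM, log axis) and its log2 ratio of flower over floral bud; dotted lines mark 4-fold. The 756 red and 748 blue genes lie on both sides in near-equal number, and Cla010810 has the lowest ratio.

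Calls were most frequent among the most weakly expressed genes, where counting error is larger. In the lowest quartile of genes by mean level (1.64 to 8.76 CPM) 7.18% were higher and 8.74% lower in the flower. The shares were 3.90% and 4.55% in the second quartile, 3.77% and 3.07% in the third, and 4.81% and 3.10% in the highest (60.02 to 20389 CPM). The flower had counts for 643 genes at 0 in the floral bud, of 58 at most, and the floral bud had counts for 729 genes at 0 in the flower, of 165 at most. Among the called genes, 13 higher genes had 0 counts in the floral bud and 28 lower genes had 0 in the flower. The most abundant of them was Cla022335 (chromosome 8, 22693049 to 22693483), with 0 counts in the DAH3615-MS flower and 165 in its floral bud. Of the genes at 0 in the floral bud, Cla016938 had the most flower counts, 58.

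Descriptions that name a function were used for 1273 of the 15377 genes. Of these, 71 (5.58%) were at least 4-fold higher in the DAH3615-MS flower and 43 (3.38%) at least 4-fold lower. The descriptions held here were incomplete, so each family or list below holds only its members among the genes with a description. The described genes that were highest in the flower relative to the bud included enzymes of secondary metabolism, nitrogen assimilation and lipid use. The cytochrome P450 gene Cla000234, a member of a family of oxidases that modify many small molecules, had 231 counts in the flower and 4 in the floral bud, a 65.4-fold difference (25.2 to 242). Chalcone synthase Cla000287, which makes the first committed intermediate of the flavonoids, had 945 counts in the flower and 87 in the floral bud, 12.3-fold higher (9.87 to 15.5). Malate synthase Cla002601, an enzyme of the glyoxylate cycle that turns stored fatty acids into sugar precursors, had 848 counts in the flower and 73 in the floral bud, 13.2-fold higher (10.3 to 16.9). All 3 genes were past 4-fold at the near counting limit as well, and each was also higher in the DAH3615 flower than in its floral bud.

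Nitrate reductase, which reduces nitrate to nitrite as the first step of nitrate assimilation, was read from a pair of gene models. Cla002787 (chromosome 3, 10829825 to 10830613) had 524 counts in the flower and 33 in the floral bud, and Cla002788 (chromosome 3, 10830636 to 10832990) had 1597 and 122. The flower was 18.0-fold higher (12.7 to 26.4) at the first and 14.8-fold higher (12.3 to 18.0) at the second. The models lie 22 bases apart on the same strand, so they are not independent measurements. In DAH3615 the same models had 424 and 1222 counts in the flower, against 138 and 380 in the floral bud.

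Signalling genes formed another part of the described genes higher in the flower. Receptor kinase Cla001254 had 1238 counts in the flower and 82 in the floral bud (17.1-fold, 13.7 to 21.6). Protein phosphatase 2C Cla002234, of a family of which some members in Arabidopsis restrain abscisic acid signalling, had 1095 counts in the flower and 136 in the floral bud (9.12-fold, 7.62 to 10.98). The homeobox leucine zipper protein Cla002419, a transcription factor, had 904 and 94 counts (10.9-fold, 8.80 to 13.6), and the serine/threonine kinase Cla000707 had 499 and 56 (10.1-fold, 7.65 to 13.5). All 4 genes were also higher in the flower in DAH3615. The TMV response-related protein Cla000519 had 49 counts in the flower and 0 in the floral bud, 18.5-fold higher at the floor (near counting limit 14.5). Cla002485, described only by a rice locus name, had the most flower counts of the 12 described genes with the clearest flower level, with 4383 counts in the flower and 262 in the floral bud (19.0-fold, 16.7 to 21.6).

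The described genes that were lowest in the flower relative to the bud were mostly enzymes and proteins of the cell wall. Pectate lyase Cla002742, which cleaves de-esterified pectin, had 352 counts in the DAH3615-MS flower and 4586 in its floral bud, 11.5-fold lower (10.3 to 12.9). A second pectate lyase, Cla002573, had 162 and 1677 counts (9.14-fold lower, 7.77 to 10.8), and pectate lyase Cla002940 had 11 and 75 (6.02-fold lower, 3.18 to 12.6). The 3 pectate lyases were each lower in the flower by more than 3-fold at the near counting limit. Polygalacturonase Cla000802, which hydrolyses the pectin backbone, had 132 counts in the flower and 1616 in the floral bud (10.8-fold lower, 9.05 to 13.0). Rhamnogalacturonate lyase-like Cla000606 had 4 and 57 counts (12.6-fold lower, 4.65 to 47.8).

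Other cell wall genes lower in the flower came from further families. Expansin B1 Cla002283, of a family that loosens walls during growth, had 13 counts in the flower and 222 in the floral bud (15.1-fold lower, 8.64 to 28.8). The proline-rich protein Cla001659, of a family of structural wall proteins, had 16 and 459 (25.3-fold lower, 15.4 to 44.7). Trichome birefringence protein Cla000811, of a family that acetylates wall polysaccharides in Arabidopsis, had 5 and 98 (17.3-fold lower, 7.17 to 54.5). A glucan endo-1,3-beta-glucosidase, Cla001408, of the enzymes that degrade callose, had 0 counts in the flower and 27 in the floral bud. It was 7.95-fold lower at the floor (near counting limit 6.03). In contrast, glucan endo-1,3-beta-glucosidase Cla001095 had 656 counts in the flower and 155 in the floral bud (4.79-fold higher, 4.02 to 5.75).

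Over the cell wall list, 21 of 30 members reached 20 counts. Of these, 1 was at least 4-fold higher and 9 were at least 4-fold lower in the flower. The shares over all tested genes were 4.92% and 4.86%. The median log2 ratio of the list was -1.62, against -0.02 over all genes. The other 11 tested members were under 4-fold. Among them, the 4 hydroxyproline-rich glycoproteins lay between -0.01 and 0.92 on the log2 scale and the 2 xyloglucan endotransglucosylase/hydrolases at 0.48 and 0.52. The BURP domain protein Cla000796 had 781 counts in the flower and 2723 in the floral bud. In DAH3615, 8 members of the list were at least 4-fold lower in the flower and 0 higher, beside 3.66% and 4.2% of all tested genes.

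Outside the wall, 4-coumarate-CoA ligase Cla002689 (chromosome 7, 107572 to 111417) had the clearest bud level of any described gene. This family activates hydroxycinnamic acids for lignin, flavonoids and related polymers. Cla002689 had 54 counts in the flower and 1864 in the floral bud, 30.5-fold lower (23.3 to 40.7), and 70 and 1193 in DAH3615. A second ligase, Cla002603, had 2 and 19 counts (8.39-fold lower, 2.02 to 74.3), and another, Cla002604, had 72 and 99. The dirigent-like protein Cla003179, of a family that guides the coupling of lignan precursors, had 12 counts in the flower and 70 in the floral bud (5.15-fold lower, 2.77 to 10.4). The phenylpropanoid and flavonoid list thus held members in both directions, with 1 higher (the chalcone synthase) and 3 lower among 13 tested. Beside them, 4.92% and 4.86% of all tested genes were called. The median log2 ratio of the list was -0.59. Laccase-3 Cla003116, laccase-8 Cla003115 and laccase-6 Cla003118 were nearly silent in DAH3615-MS, with 0 counts in the flower and 4, 2 and 1 in the floral bud, against 6647, 7015 and 1895 counts in the DAH3615 flower.

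Further described genes lower in the flower were receptor-like kinase Cla002774, with 3 counts in the flower and 106 in the floral bud (31.2-fold, 10.4 to 154), and the Rac-like GTP binding protein Cla001586, of a family of switches for polar growth, with 32 and 390 (10.8-fold, 7.5 to 15.95). Cla003203, whose description begins with enoyl-, had 129 and 1142 counts (7.82-fold, 6.51 to 9.45), and Cla001828, described only by a rice locus name, had 39 and 441 (9.98-fold, 7.19 to 14.2). All 4 were also lower in the flower than in the floral bud of DAH3615.

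**Figure D2:**
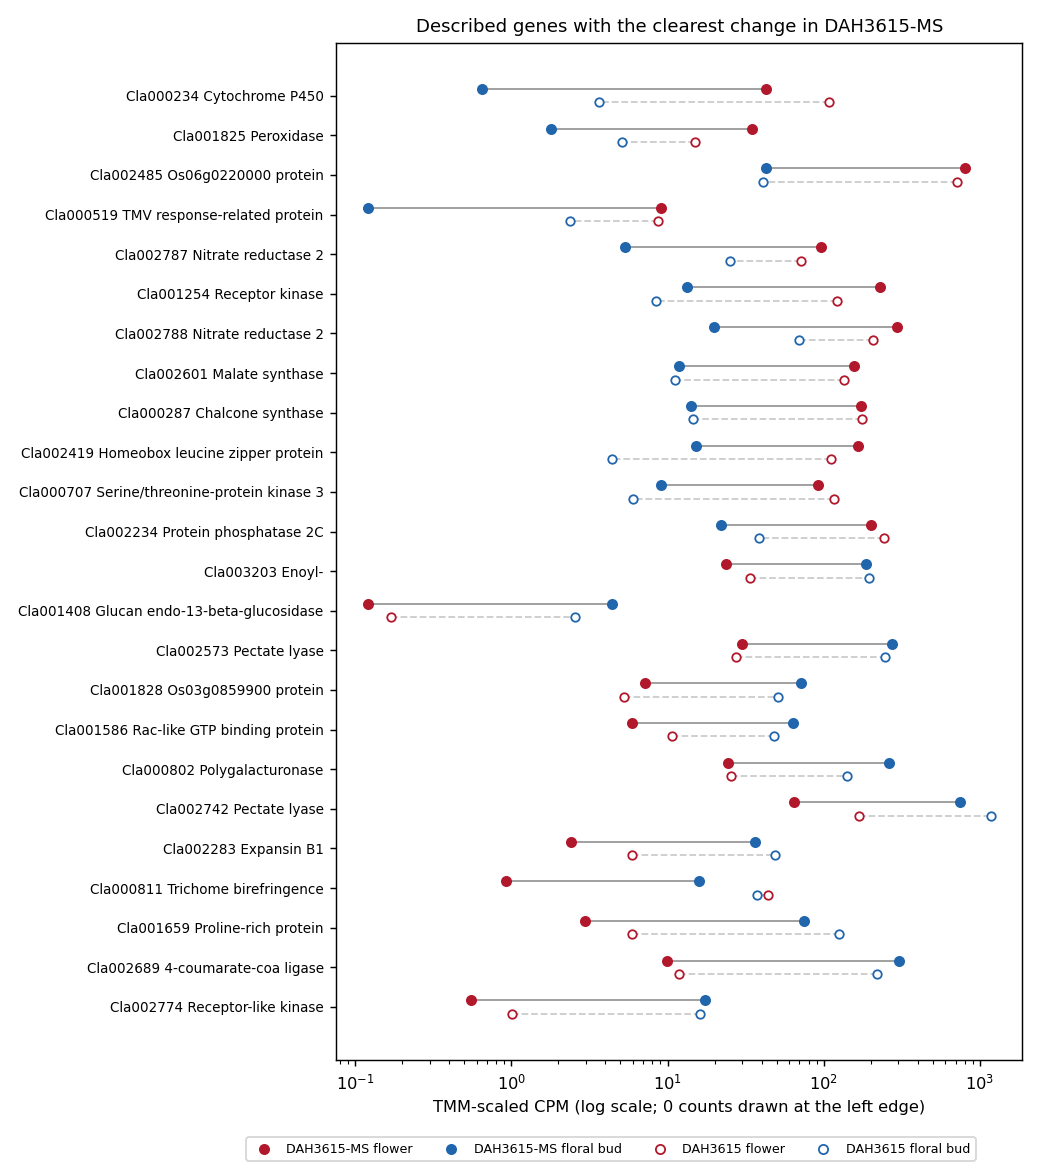
TMM-scaled CPM (log axis) of the 12 described genes in each direction with the clearest change in DAH3615-MS, in all 4 libraries, 1 library per point; filled points are DAH3615-MS, open points DAH3615, and counts of 0 are drawn at the left edge. The flower point lies right of the floral bud point for the upper 12 genes and left of it for the lower 12, and Cla000811 is the only one of the 24 with the opposite order in DAH3615.

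The largest ratios of all belonged to genes for which no description was used. Cla010810 (chromosome 7, 30081290 to 30082253) had 3 counts in the DAH3615-MS flower and 3063 in its floral bud, 901-fold lower (308 to 4374), and 5 and 1848 in DAH3615. Cla021361 (chromosome 5, 2523847 to 2526952) had 10 counts in the flower and 1984 in the floral bud (175-fold lower, 95.05 to 366), and its neighbour Cla021362 had 7 and 664 (83.7-fold lower, 40.4 to 209). Cla009677 (chromosome 1, 32028865 to 32034511) combined a large ratio with a high level, with 185 counts in the flower and 8739 in the floral bud (41.7-fold lower, 36.0 to 48.5). The 12 undescribed genes with the clearest bud level all had fewer than 200 counts in the flower, and all 12 were at least 4-fold lower in the DAH3615 flower as well.

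In the other direction, Cla015165 (chromosome 9, 3809851 to 3811275) had 289 counts in the flower and 1 in the floral bud, a ratio of 327 with a wide counting interval (58.3 to 12973). Cla009280 had 496 and 5 counts (112-fold, 47.8 to 348), and Cla016053 (chromosome 2, 6873834 to 6875324) had 1440 and 25 (65.2-fold, 44.0 to 101). Cla019485 (chromosome 3, 5778780 to 5781333) was abundant in the flower, with 16582 counts in the flower and 663 in the floral bud (28.3-fold, 26.2 to 30.7), and 9563 and 937 in DAH3615. The 12 genes with the clearest flower level were all at least 4-fold higher in the DAH3615 flower too.

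Measured as a difference in TMM-scaled CPM, which favours abundant and long genes, other genes led. Cla014416 had 20873 counts in the DAH3615-MS flower and 81789 in its floral bud, 3.46-fold lower (3.41 to 3.51). The methionine synthase Cla002903, described as 5-methyltetrahydropteroyltriglutamate--homocysteine methyltransferase, had 4660 and 25242 counts (4.78-fold lower, 4.64 to 4.94). This enzyme makes methionine, the precursor of S-adenosylmethionine for methylation and ethylene synthesis. Cla003384, with 95102 counts in the flower and 142795 in the floral bud, was 1.33-fold lower. On the flower side, Cla006123 had 28777 and 13068 counts (2.49-fold higher, 2.44 to 2.55) and Cla009056 had 19386 and 6465 (3.40-fold higher, 3.30 to 3.49). Cla011126 had 11314 and 1630 counts (7.86-fold higher, 7.46 to 8.29), and Cla005583 had 11439 and 2069 (6.26-fold higher, 5.98 to 6.57). Of the 16 genes with the largest such differences, 8 in each direction, 10 were under 4-fold.

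**Figure D3:**
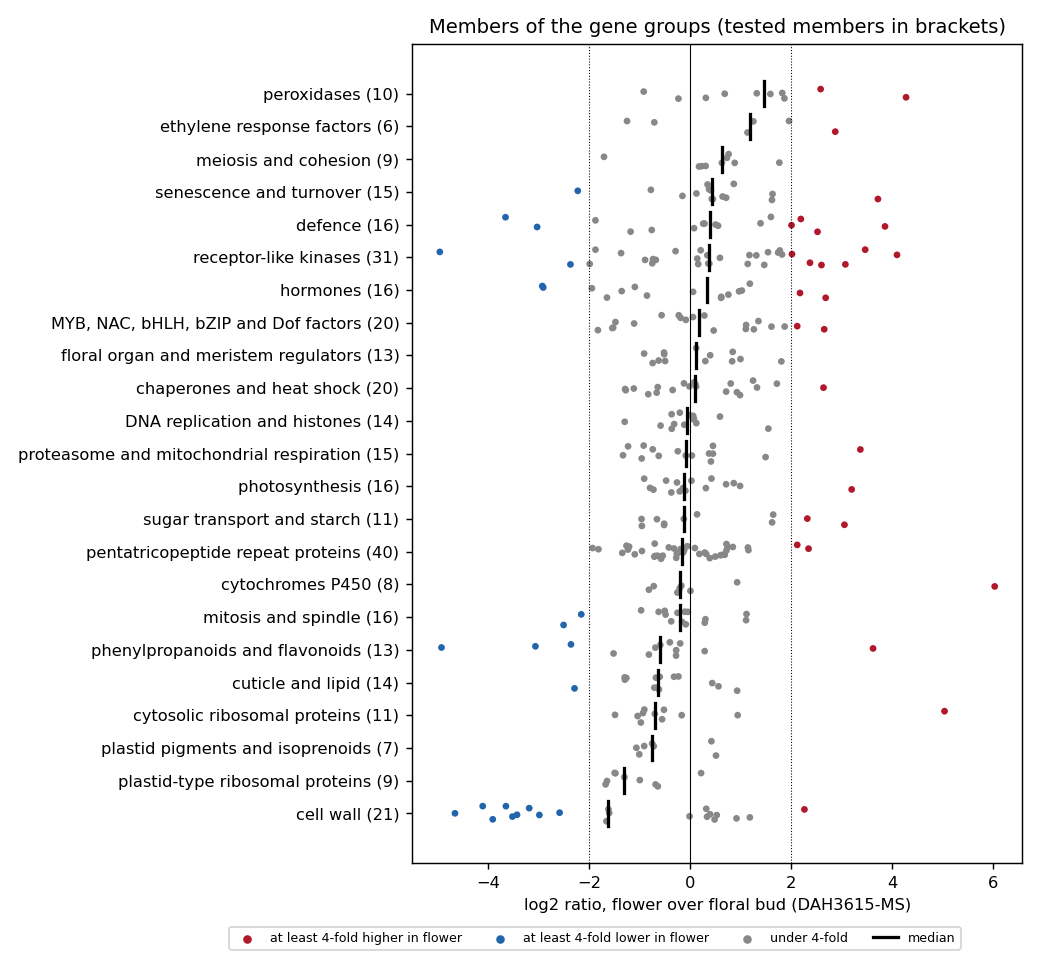
Log2 ratio of flower over floral bud in DAH3615-MS for the tested members of 23 gene groups, 1 gene per point, with the group median as a black bar and 4-fold as dotted lines; groups are ordered by their median. The cell wall group has the lowest median (-1.62), with 9 blue of 21 tested members. The peroxidases have the highest (1.45), with 2 red of 10 tested members. Of all tested genes, 4.92% were called higher and 4.86% lower.

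Peroxidases, which use hydrogen peroxide to cross-link wall phenolics among other roles, had the highest median of the 23 gene groups, with 10 tested members at a median log2 ratio of 1.45 and 8 of them above 0. Of the 10 tested, 2 were at least 4-fold higher in the flower and 0 lower, beside 4.92% and 4.86% of all tested genes. Cla001825 had 188 counts in the flower and 11 in the floral bud (19.4-fold higher, 10.6 to 39.4) and Cla001849 had 349 and 66 (5.99-fold, 4.59 to 7.92). Cla000535 and Cla003188, with 1700 and 1286 counts in the flower and 641 and 400 in the floral bud, were under 4-fold. Ethylene response factors are DNA-binding proteins that act downstream of ethylene and stress. Of the 6 tested, 1 was at least 4-fold higher in the flower, Cla002330 with 278 and 43 counts (7.32-fold, 5.30 to 10.3). Such calls were made for 4.92% of all tested genes. Cla002237 had 596 counts in the flower and 174 in the floral bud, just under 4-fold.

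Receptor-like kinases, which carry signals from the cell surface, had 6 members at least 4-fold higher and 2 lower among 31 tested, with a median log2 ratio of 0.38, where 4.92% and 4.86% of all tested genes were called. Besides Cla001254, the higher members included Cla003148 with 273 counts in the flower and 28 in the floral bud (11.04-fold, 7.47 to 16.9) and Cla001794 with 1320 and 289 (5.17-fold, 4.55 to 5.90). In the defence list, 4 of 16 tested members were at least 4-fold higher in the flower and 2 lower, beside the same shares over all genes. The higher ones were WRKY transcription factors Cla002084 (64 counts in the flower and 5 in the floral bud) and Cla002243 (407 and 101), the resistance protein Cla002912 (152 and 30) and the harpin-induced protein Cla003142 (39 and 11). The lower ones were MLO-like protein Cla002071, with 3 counts in the flower and 43 in the floral bud, and harpin-induced protein Cla001045, with 7 and 65.

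Among the sugar genes, both tested N3-type bidirectional sugar transporters, which move sugars across membranes, were at least 4-fold higher in the flower. Cla002641 had 436 counts in the flower and 99 in the floral bud (4.99-fold, 4.0 to 6.27), and Cla001496 had 44 and 6 (8.31-fold, 3.53 to 23.8). The remaining 9 of 11 tested members, among them amylases, an acid invertase and a trehalose-6-phosphate synthase, were under 4-fold. The median of the list was -0.13. For comparison, 4.92% of all tested genes were called higher and 4.86% lower. In the senescence and turnover list, malate synthase was the only one of 15 tested members at least 4-fold higher. 3-ketoacyl CoA thiolase Cla002733, an enzyme of fatty acid beta-oxidation, was 4.69-fold lower (64 counts in the flower, 340 in the floral bud), while another thiolase, Cla002944, had 10980 counts in the flower and 4020 in the floral bud. Pheophorbide a oxygenase Cla001857, which opens the ring of chlorophyll during its breakdown, had 477 and 176.

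Hormone genes were split, with 2 higher and 2 lower of 16 tested, beside 4.92% and 4.86% of all tested genes. Cytokinin oxidase/dehydrogenase Cla002932, which degrades cytokinin, had 231 counts in the flower and 58 in the floral bud (4.51-fold higher, 3.37 to 6.12), and the auxin-regulated protein Cla002398 had 17 and 3. The auxin transporter-like protein Cla000681 had 13 counts in the flower and 111 in the floral bud (7.54-fold lower, 4.23 to 14.6). The SAUR-like protein Cla001873, of a family of early auxin-response genes, had 14 and 121 (7.63-fold lower, 4.38 to 14.4). Auxin response factor Cla000557 had 56 counts in the flower and 245 in the floral bud, just under 4-fold.

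Of the 20 tested MYB, NAC, bHLH, bZIP and Dof factors, 2 were at least 4-fold higher in the flower and 0 lower. Among all tested genes the shares were 4.92% and 4.86%. The NAC domain protein Cla001495 had 1672 counts in the flower and 301 in the floral bud (6.29-fold, 5.56 to 7.14), and the MYB factor Cla001341 had 46 and 12 (4.34-fold, 2.26 to 9.0). None of the 13 tested floral organ and meristem regulators passed 4-fold in either direction. The MADS-box factor Cla000691 had 1414 counts in the flower and 3019 in the floral bud, and Cla000516, a squamosa promoter-binding protein, had 2426 and 1547. TPD1 Cla002639, which in Arabidopsis is a small protein needed for tapetum formation, had 37 and 12.

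The lists for growth and protein synthesis moved little or leaned to the bud. As a background, 4.92% of all tested genes were called higher and 4.86% lower. None of the 14 tested genes of DNA replication and histones passed 4-fold, with a median log2 ratio of -0.07. Of 16 tested genes of mitosis and the spindle, 2 were lower in the flower, tubulin alpha-2 chain Cla003129 with 136 counts in the flower and 878 in the floral bud (5.70-fold, 4.75 to 6.88) and kinesin-like protein Cla001716 with 16 and 81 (4.47-fold, 2.59 to 8.19). The 9 plastid-type ribosomal proteins had a median of -1.31, with 8 below 0 and none past 4-fold. Cytosolic ribosomal proteins had a median of -0.70 and 9 of 11 below 0. Their single called member was 60S acidic ribosomal protein Cla000303, with 29 counts in the flower and 1 in the floral bud, against 73 and 53 in DAH3615. Among 16 tested photosynthesis genes, the light regulated protein-like Cla001482 was at least 4-fold higher in the flower, with 729 counts in the flower and 90 in the floral bud (9.17-fold, 7.36 to 11.6). The chlorophyll a-b binding protein Cla001764 had 2350 and 1465.

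For the remaining lists, the calls were few, beside 4.92% of all tested genes called higher and 4.86% called lower. The GDSL esterase/lipase Cla000911 was the only one of 14 tested cuticle and lipid genes past 4-fold, with 9 counts in the flower and 50 in the floral bud. Heat stress transcription factor Cla002923 had 88 counts in the flower and 16 in the floral bud, the only call among 20 tested chaperones and heat shock genes. Cytochromes P450 had 1 call among 8 tested, Cla000234, and genes of the proteasome and mitochondrial respiration 1 among 15, the NADH dehydrogenase Cla001355. None of 9 tested genes of meiosis and cohesion and none of 7 tested genes of plastid pigments and isoprenoids passed 4-fold. The meiosis and cohesion list had a median log2 ratio of 0.63, with 8 genes above 0 (median 0.30 at a minimum of 10 counts). Plastid pigments and isoprenoids had a median of -0.76, with 5 genes below 0. Among 2 tested pollen genes, Cla003043, described as a pollen Ole e 1 allergen and extensin family protein, had 8 counts in the DAH3615-MS flower and 108 in its floral bud (11.9-fold lower, 5.84 to 28.3), against 170 and 1142 in DAH3615.

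The only replicated test that the design allows treats the lines as replicates of an organ. With line and organ as additive terms over the 4 libraries, the quasi-likelihood test in edgeR (Benjamini-Hochberg adjusted p below 0.01) called 1497 genes (7.59%) higher and 1496 (7.58%) lower in flowers than in floral buds, of 19732. This test passed in the same direction for 566 (74.9%) of the 756 genes higher and 522 (69.8%) of the 748 genes lower in the DAH3615-MS flower, against 19.2% of all 15377 tested genes in either direction. The DAH3615-MS libraries are part of that test, so the overlap is not independent of the contrast. Among list members with counts in DAH3615-MS, it called 12 of 30 cell wall genes lower and 2 higher in flowers, 14 of 49 receptor-like kinases higher and 4 lower, 5 of 12 peroxidases higher and 3 of 8 ethylene response factors higher. It also called 5 of 27 defence genes higher and 2 lower, 5 of 22 hormone genes lower and 2 higher, and 5 of 19 cuticle and lipid genes lower. Lower calls were made for 3 of 9 plastid-type ribosomal proteins, 3 of 24 genes of mitosis and the spindle and 3 of 16 genes of the proteasome and mitochondrial respiration, while 1 gene of that last group was called higher. None of the 22 floral organ and meristem regulators was called. With any 1 library left out and a model of organ alone, the quasi-likelihood test in edgeR called 0 genes, while between 3339 and 4547 genes had an unadjusted p under 0.05.

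The same contrast in DAH3615 shares no library with that in DAH3615-MS. Of the members, 15771 reached 20 counts in DAH3615, where 662 (4.2%) were at least 4-fold higher and 577 (3.66%) at least 4-fold lower in the flower. Both lines shared 404 higher genes, which is 53.4% of those of DAH3615-MS and 61.0% of those of DAH3615, and 347 lower genes, which is 46.4% and 60.1%. Of the genes called in DAH3615-MS, 720 of 754 higher and 712 of 746 lower genes with a ratio in DAH3615 had the same direction there, whatever its size. Across the 15069 genes tested in both, Pearson's r of the log2 ratios was 0.82 and Spearman's rho 0.80, as a description over genes that share the libraries and are not independent replicates.

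The genes lower in the DAH3615-MS flower had a median log2 ratio of -2.76 in DAH3615-MS and -1.96 in DAH3615. The genes lower in the DAH3615 flower had a median of -2.66 in DAH3615-MS and -2.65 in DAH3615. For the genes higher in the flower, those chosen in DAH3615-MS had medians of 2.58 in DAH3615-MS and 2.12 in DAH3615, and those chosen in DAH3615 had 2.34 and 2.66. Each set was chosen on 1 of the contrasts, which enlarges its median there. Over all genes tested in both, the interquartile range was 1.26 on the log2 scale in DAH3615-MS and 1.03 in DAH3615, and 31.2% and 25.1% of genes were past 2-fold. Whether the lines differ in the extent of the change was not tested, since no condition has a second library.

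**Figure D4:**
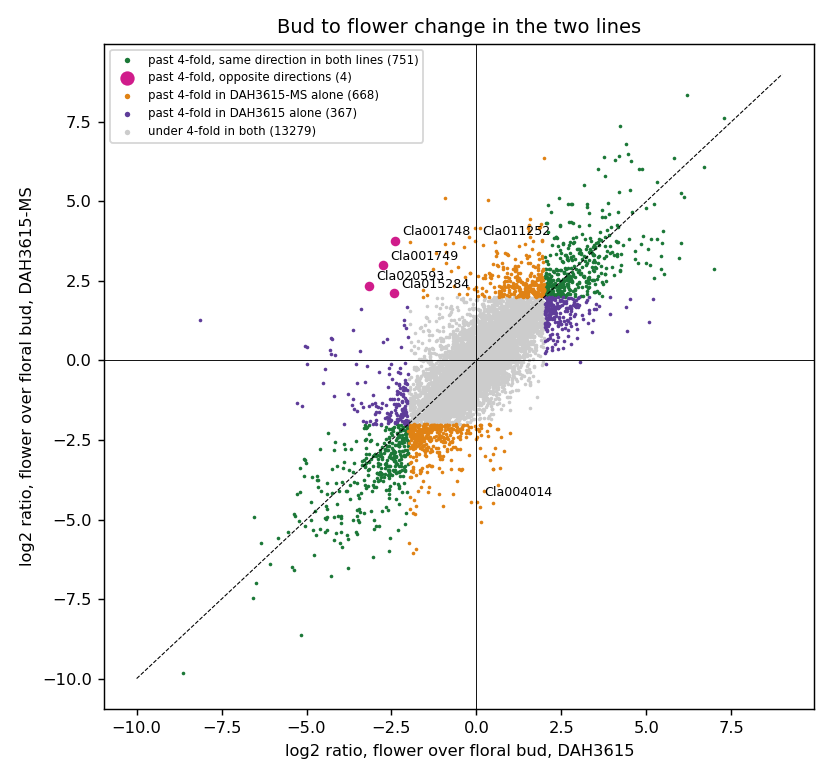
Log2 ratio of flower over floral bud in DAH3615-MS (vertical) and in DAH3615 (horizontal) for the genes with at least 20 counts in both contrasts, 1 gene per point, with the line of equal change dashed. Of the called genes, 751 are past 4-fold in the same direction in both lines and 4 in opposite directions.

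Opposite calls were made for 4 genes, all higher in the DAH3615-MS flower and lower in the DAH3615 flower. Cla020593 (chromosome 5, 28389940 to 28393519) had 533 counts in the flower and 118 in the floral bud of DAH3615-MS, against 112 and 933 in DAH3615. A pair of neighbouring models described as cation/H+ antiporter 18, of a family of ion exchangers in internal membranes, gave the same picture. Cla001748 had 72 and 6 counts in DAH3615-MS, against 98 and 476 in DAH3615, and Cla001749 had 21 and 3, against 28 and 174. These models lie 50 bases apart on the same strand of chromosome 7. The fourth, Cla015284, had few counts, 23 and 6 in DAH3615-MS, against 11 and 55 in DAH3615. With at least 50 counts asked for in each line, 2 of these calls remained. In all 4 genes the floral bud of DAH3615-MS was below that of DAH3615.

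Other genes changed in DAH3615-MS while they were near even in DAH3615, within 1.5-fold. Those lower in the DAH3615-MS flower included Cla004014 (chromosome 7, 3762988 to 3764556), with 10 counts in the flower and 245 in the floral bud of DAH3615-MS (21.6-fold lower, 11.6 to 45.7), against 1740 and 1585 in DAH3615. Cla005573 had 2 and 51 counts in DAH3615-MS, against 2752 and 1801 in DAH3615, and Cla011559 had 2 and 55, against 973 and 843. The trichome birefringence gene Cla000811 had 260 counts in the flower and 206 in the floral bud of DAH3615. Each of these 4 genes was lower in both DAH3615-MS organs than in either organ of DAH3615. Cla010064 and Cla022650 completed the 6 genes of this kind, with 7 and 44 counts in the flower and 86 and 344 in the floral bud of DAH3615-MS.

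Those higher in the DAH3615-MS flower had a low floral bud in that line instead. Cla011252 (chromosome 3, 26806979 to 26807611) had 372 counts in the flower and 31 in the floral bud of DAH3615-MS (13.6-fold higher, 9.41 to 20.3), against 408 and 389 in DAH3615. The MATE efflux family protein Cla003109, of a family that exports organic compounds from the cytosol, had 47 and 3 counts, against 64 and 61. Cla013062 had 2253 and 399 counts, against 1572 and 1222 in DAH3615, and Cla018474 had 894 and 153, against 598 and 418. Cla010581 and Cla010601 had 196 and 265 counts in the DAH3615-MS flower, and 29 and 45 in its floral bud. In all 6 genes the DAH3615-MS floral bud had the lowest level of the 4 libraries.

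**Figure D5:**
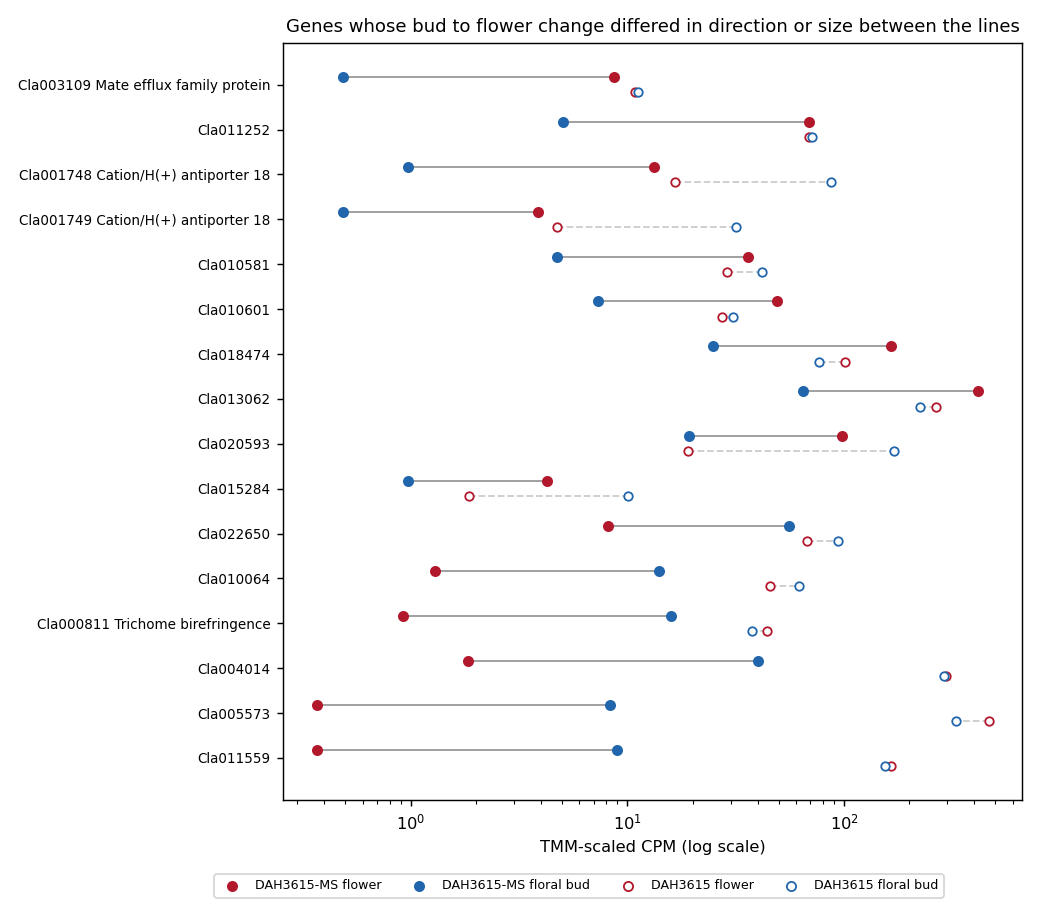
TMM-scaled CPM (log axis) in the 4 libraries, 1 library per point, for the 4 genes called in opposite directions in the 2 lines and the 12 genes called in DAH3615-MS but within 1.5-fold in DAH3615; filled points are DAH3615-MS and open points DAH3615. For the upper 10 genes the DAH3615-MS floral bud lies left of its flower, and for the lower 6 the DAH3615-MS flower lies farthest left.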

How the data were processed

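Per the study's methods, paired-end HiSeq reads were cleaned with Trimmomatic, aligned by TopHat2 (with Bowtie2) against the version 1 watermelon genome, and summed over gene models by HTSeq. The authors deposited these sums as raw counts. The sources used here give neither tool versions nor the strand setting, so overlapping or near-identical genes may share reads.

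Libraries were scaled by TMM in edgeR 4.0.16 (R 4.3.3). The ratios, called at 4-fold among genes with at least 20 counts, and their 95% counting intervals were computed with Python 3.11.15 and scipy 1.17.1. They have no p-value. Samples of a group have no replicate, so a gene's own spread in the quasi-likelihood test of organ is its line-by-organ difference. That spread has 1 residual degree of freedom. The test moderates it with a spread estimated over all genes, which carries 6.43 prior degrees of freedom, so most of the spread is borrowed from other genes. Both procedures were tested on simulated data. Alternatives were other scalings, folds, minimum counts, DESeq2 1.42.0 and the likelihood ratio test.

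Members and lists were chosen with earlier results of these data known. Gene descriptions were used for 1999 genes, and those that name a function are called described genes. The descriptions held here were incomplete, so the lists do not cover whole gene families of watermelon. Named genes were the 12 called genes in each direction with the near counting limit farthest from 1, among all and among described genes, the 8 in each direction with the largest CPM difference, called list members, the genes called in opposite directions in the 2 lines (6 at most), and 6 in each direction called in DAH3615-MS and within 1.5-fold in DAH3615 (at least 50 counts in each line). Other genes were named after their values were seen. Sequences were not used here.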

Additional observations from a re-analysis of the deposited data

Results flagged for a closer look

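For 8 of the genes named above, the bud to flower ratio lay on opposite sides of 1 in the 2 lines, with both 95% counting intervals clear of 1. Higher in the DAH3615-MS flower and lower in the DAH3615 flower were Cla020593 (log2 ratio 2.36 in DAH3615-MS and -3.17 in DAH3615), Cla001748 (3.76 and -2.39), Cla001749 (2.99 and -2.75), Cla015284 (2.12 and -2.43), Cla001355 (3.37 and -1.19) and Cla010581 (2.94 and -0.54). Lower in the DAH3615-MS flower and higher in the DAH3615 flower were Cla001873 (-2.93 and 0.48) and Cla005573 (-4.49 and 0.50). Cla001355, described as an NADH dehydrogenase, had 73 counts in the flower and 8 in the floral bud of DAH3615-MS, against 107 and 226 in DAH3615. With 1 library per condition the difference between the lines was not tested for any of them.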

How the results depend on the processing

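No paired analysis was possible because each organ of DAH3615-MS has a single library. The organ test already sets flower against floral bud within each line. The 1504 calls became 4867 at 2-fold (2264 higher, 2603 lower in the flower), 533 at 8-fold (239 and 294) and 730 when the counting interval had to lie beyond 4-fold (370 and 360). Under library totals, DESeq2 size factors, upper-quartile factors and TMM on the DAH3615-MS libraries alone they numbered between 1501 and 1504. These scalings moved the median of all genes by at most 0.04. The balance of directions did shift, from 715 higher and 789 lower under library totals to 788 and 713 under DESeq2 size factors. The 751 genes called in the same direction in both lines became 2861 at 2-fold (1431 higher, 1430 lower) and 230 at 8-fold (114 and 116). The 4 opposite calls became 36 at 2-fold, 0 at 8-fold and 2 at a minimum of 50 counts. The 2993 genes of the organ test became 4933 under the likelihood ratio test (2385 higher, 2548 lower), 5549 at a false discovery rate of 0.05 (2706 and 2843) and 0 in every fit with a single library left out, where the line term was dropped as well and the cause was not tested. DESeq2 called 2521. Of 575 ratios of named genes under other scalings and a floor of 1 count, none changed direction and 2 fell under 4-fold. Of the 105 calls among named genes, 41 were lost at 8-fold, 23 with the interval beyond 4-fold and 8 at a minimum of 50 counts. Of 306 list medians under the alternatives, 19 moved, all with another minimum count or none, among them phenylpropanoids and flavonoids (-0.28 at 50 counts) and sugar transport and starch (-0.32 at 10 counts). Depth limits the ratios of genes with few counts, whose intervals span over an order of magnitude.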

Other observations

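The called genes lay on all 11 chromosomes. On chromosomes 1 to 11, between 3.98% (chromosome 11) and 5.73% (chromosome 3) of the tested genes were at least 4-fold higher in the DAH3615-MS flower, and between 3.78% (chromosome 8) and 5.88% (chromosome 6) at least 4-fold lower. A tested neighbour on either side called in the same direction was found for 125 of 749 higher genes (16.7%) and 130 of 739 lower genes (17.6%). Of the genes on these chromosomes, 4.93% and 4.86% were called. A gene can have a neighbour on each side, so 4.93% and 4.86% lie below the share expected to have a called neighbour. That expected share was not computed. Gene models that split 1 gene, and near-identical copies that share reads, would both count as such neighbours and were not separated. Runs of at least 3 adjacent tested genes numbered 7 for higher and 6 for lower genes, and their expected number was not computed. The longest run held 5 lower genes on chromosome 6 (7339125 to 7454810), Cla007549, Cla007551, Cla007552, Cla007553 and Cla007556, which together had 84 counts in the DAH3615-MS flower and 807 in its floral bud, against 294 and 1281 in DAH3615. On chromosome 3 (5748069 to 5815674), Cla019483, Cla019485 and Cla019487 together had 17489 counts in the flower and 777 in the floral bud. On chromosome 10 (19447941 to 19466930), Cla017149, Cla017148 and Cla017147 together had 397 counts in the flower and 4508 in the floral bud.

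Pentatricopeptide repeat proteins, which process RNA in plastids and mitochondria, had 40 tested members at a median log2 ratio of -0.17, 2 at least 4-fold higher and 0 lower in the DAH3615-MS flower, where 4.92% and 4.86% of all tested genes were called. With a minimum of 50 counts the median was 0.14. Cla000712 had 206 counts in the flower and 46 in the floral bud, and Cla002131 had 326 and 85.

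Of the genes called lower with 0 counts in the DAH3615-MS flower, 2 stood out in DAH3615. Cla021494 had 0 counts in the flower and 35 in the floral bud of DAH3615-MS, against 2896 and 1673 in DAH3615, and Cla013304 had 0 and 47, against 824 and 1129.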
